A study of Mus musculus with 6 samples.

Results

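The enzymes that bring pyruvate into mitochondria and turn the tricarboxylic acid (TCA) cycle were examined as a group of 34 genes, listed by symbol. Members were taken from the platform annotation of the array, using only probe sets that name 1 gene and, per gene, the probe set with the highest mean over all 6 arrays. This gave 32 of the 34 members among 18820 genes. Pdha1 lies only on probe sets shared with another gene and Mpc2 was not found in the annotation used, so both are not analysed here. The 32 members comprise 13 genes of the TCA cycle, 3 of the pyruvate dehydrogenase complex, 7 of its kinases and phosphatases, 3 of pyruvate import, carboxylation and phosphoenolpyruvate formation, and 6 enzymes that act in the cytosol or link it to the cycle. Values are log2 expression levels, and 31 members had a mean level above the 40th percentile of all genes and were tested. Pdp2 was below it.

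The cells were C2C12, an established mouse myoblast line that forms multinucleated myotubes when serum is withdrawn. Cells had 7 days of differentiation in 2% horse serum and were transfected on day 6 by lipofection with 50 nM of a locked nucleic acid oligonucleotide, 24 h before harvest. In the 3 silenced arrays the oligonucleotide was a silencer of miR-382-5p, and in the 3 control arrays it was a negative control, so the controls had been transfected too. Both groups carry replicate numbers 1 to 3, whose meaning the labels do not state, nor whether samples were separate cultures, so a p-value here reflects how far these samples scatter, some of which may be technical.

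Pyruvate made by glycolysis crosses the inner mitochondrial membrane through the mitochondrial pyruvate carrier. The pyruvate dehydrogenase complex then converts it to acetyl-CoA, a step that pyruvate dehydrogenase kinases switch off and phosphatases switch on, while pyruvate carboxylase turns part of the pyruvate into oxaloacetate. Citrate synthase joins acetyl-CoA to oxaloacetate, and the dehydrogenases of the cycle pass the electrons on to the respiratory chain, which supplies contracting muscle with ATP.

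The microRNA that the silencer was directed against is shown because it defines the silenced group. RefSeq places mature mmu-miR-382-5p at chr12:109733781-109733802 on the plus strand of GRCm38.p6, and its 22 bases are given from 5′ to 3′ with the seed, bases 2 to 8, in capitals.
mmu-miR-382-5p: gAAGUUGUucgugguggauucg
The arrays did not measure the mature microRNA, so its level in the silenced cells is not known from these data.

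The 6 arrays correlated between 0.985 and 0.995 over the 11292 tested genes. All 11 myotube markers were above the level filter, with a mean level between 10.76 and 10.82 in control and between 10.83 and 11.05 in silenced arrays. Markers of other states and cell types were also read. The 9 markers of undifferentiated, dividing myoblasts had a mean level of 7.51 to 7.80 in control and 7.38 to 7.84 in silenced arrays, and the 7 fibroblast markers one of 8.05 to 8.47 and 8.01 to 8.40. Of the 5 adipocyte markers only Pparg, and of the 4 osteoblast markers with a probe set only Bglap, passed the level filter, so Adipoq, Fabp4, Plin1, Cidec, Sp7, Ibsp and Alpl did not. In bulk RNA fewer cells of a type and less RNA per cell cannot be told apart.

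No member passed the threshold between silenced and control arrays. The number of members with an adjusted p under 0.05 was 0 of 31, against 0 of 11292 genes (0%), by limma with Benjamini-Hochberg adjustment over all tested genes, and the smallest adjusted p of a member was 0.871. At an unadjusted p under 0.05 there were 2 members, Ogdh and Cs, or 6.45%, against 4.80% of all tested genes. The differences (silenced minus control) ran from -0.25 to 0.26 with a median of -0.018, where all genes had a median of 0.0089. The members' median lay between -0.0084 (without silenced replicate 2) and 0.0069 (without control replicate 1) when 1 array was left out. The silenced mean was the higher one for 15 members and the lower one for 16. The 95% confidence interval of a member, not adjusted for the number of genes, reached a median of 0.22 to either side of its difference. Differences up to 0.26 in size did not pass the adjusted threshold either, so shifts of this size could not be resolved.

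**Figure D1:**
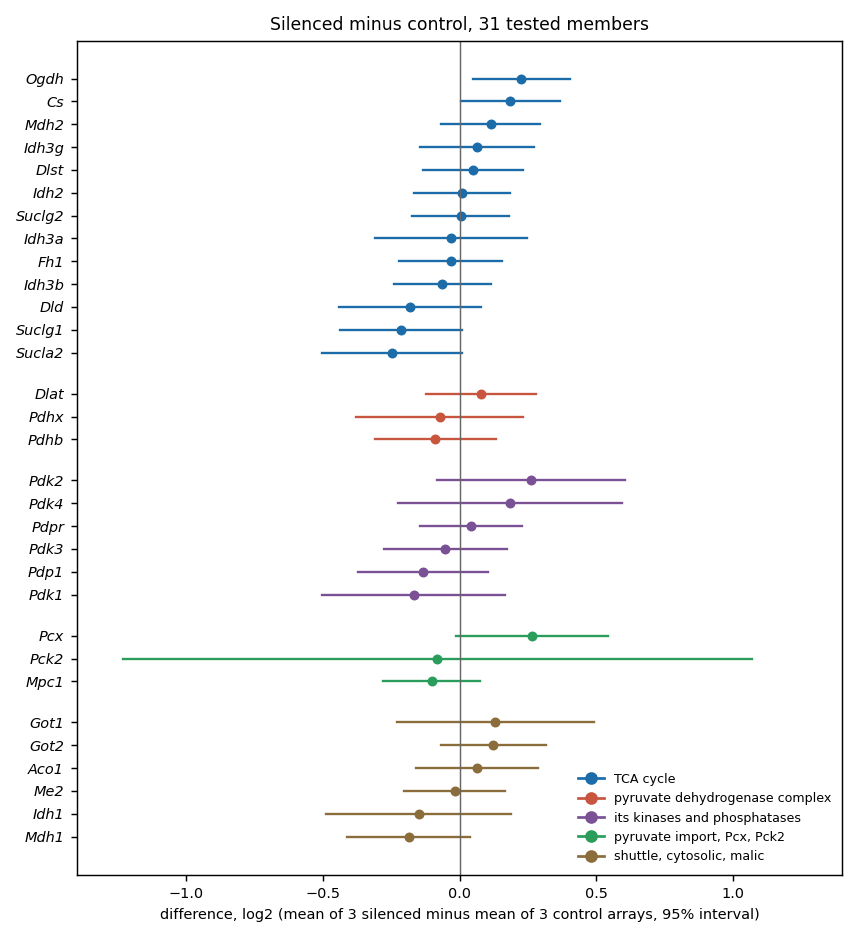
Difference of each of the 31 tested members on the log2 scale (points, mean of 3 silenced minus mean of 3 control arrays) with limma's 95% confidence interval (lines), coloured by role. The points lie between -0.25 and 0.26, and the widest interval is that of Pck2, whose arrays differed most between replicate numbers.

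The 2 members with the smallest p are enzymes of the cycle. Ogdh, which encodes the oxoglutarate-binding subunit of the oxoglutarate dehydrogenase complex, read 9.24, 9.16 and 9.19 in control and 9.41, 9.37 and 9.48 in silenced arrays 1 to 3. All 3 silenced arrays were above all 3 control arrays. The difference was 0.23 ± 0.076 (SE), 1.17-fold (unadjusted p = 0.0196, limma adjusted p = 0.871). Cs, the citrate synthase that opens the cycle, read 10.07, 10.11 and 10.13 in control and 10.36, 10.25 and 10.25 in silenced arrays 1 to 3. Its groups also did not overlap, and the difference was 0.19 ± 0.077 (SE), 1.14-fold (unadjusted p = 0.0449, limma adjusted p = 0.871). In the fit blocked on replicate number the unadjusted p of Cs was 0.0519, with a 95% confidence interval of -0.0021 to 0.37. The count of 2 members at an unadjusted p under 0.05 was 0 without control replicate 2 or without control replicate 3.

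Succinyl-CoA synthetase, the step of the cycle that makes a nucleoside triphosphate directly, is formed by an alpha subunit, Suclg1, and either of the beta subunits Sucla2, which is specific for ADP, and Suclg2, which is specific for GDP. Suclg1 read 8.10, 8.13 and 8.31 in control and 7.87, 7.95 and 8.07 in silenced arrays 1 to 3. The silenced arrays were all lower than the control arrays, with a similar gap in each same-numbered pair, and the difference was -0.22 ± 0.096 (SE, unadjusted p = 0.0574, limma adjusted p = 0.871). Sucla2 read 9.66, 9.47 and 9.57 in control and 9.18, 9.27 and 9.51 in silenced arrays 1 to 3. Here silenced array 3 lay within the control range, and the difference was -0.25 ± 0.11 (SE, unadjusted p = 0.0571, limma adjusted p = 0.871). Suclg2 read 7.59, 7.60 and 7.57 in control and 7.65, 7.60 and 7.52 in silenced arrays 1 to 3, a difference of 0.0036 ± 0.075 (SE) with a 95% confidence interval of -0.17 to 0.18. Whether the subunits differ from one another in their response was not tested.

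Dld encodes the lipoamide dehydrogenase that the pyruvate and oxoglutarate dehydrogenase complexes share. It read 9.66, 9.87 and 9.99 in control and 9.54, 9.77 and 9.66 in silenced arrays 1 to 3. Silenced arrays were lower in each same-numbered pair while the groups overlapped, and the difference was -0.18 ± 0.11 (SE, limma adjusted p = 0.871), or -0.11 without control replicate 3. Dlst, the succinyltransferase of the oxoglutarate complex, differed by 0.050 ± 0.078 (SE).

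Isocitrate dehydrogenase is present in muscle mitochondria as the NAD-dependent enzyme built from Idh3a, Idh3b and Idh3g and as the NADP-dependent Idh2. Idh2 read 9.36, 9.29 and 9.29 in control and 9.29, 9.37 and 9.30 in silenced arrays 1 to 3. These 6 values spanned 0.088, the narrowest range of any tested member, and the groups overlapped, with a difference of 0.0080 ± 0.075 (SE, 95% confidence interval -0.17 to 0.18). The subunits Idh3a, Idh3b and Idh3g differed by -0.031 ± 0.12 (SE), -0.063 ± 0.076 (SE) and 0.064 ± 0.089 (SE). At the end of the cycle, fumarate hydratase, Fh1, differed by -0.033 ± 0.080 (SE) and mitochondrial malate dehydrogenase, Mdh2, by 0.11 ± 0.078 (SE). The groups of all 5 genes, the 3 subunits, Fh1 and Mdh2, overlapped.

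The 3 measured genes of the pyruvate dehydrogenase complex showed small differences. Pdhb, the beta subunit of the component that decarboxylates pyruvate, differed by -0.088 ± 0.094 (SE). Dlat, the acetyltransferase core, differed by 0.078 ± 0.086 (SE), and Pdhx, the protein that anchors lipoamide dehydrogenase to that core, by -0.072 ± 0.13 (SE). The silenced and control arrays of all 3 genes overlapped, and the adjusted p-values by limma lay between 0.898 and 0.942.

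Kinases and phosphatases set the activity of that complex by phosphorylating it or removing the phosphate. Pdk4, the kinase that muscle induces when fatty acids replace glucose as fuel, read 6.88, 6.52 and 6.40 in control and 7.06, 6.50 and 6.80 in silenced arrays 1 to 3. The groups overlapped and the difference was 0.18 ± 0.17 (SE, 95% confidence interval -0.22 to 0.59). Leaving out 1 array, which also unbalances the replicate numbers, gave 0.047 without silenced replicate 1 and 0.086 without control replicate 3. It gave 0.33 without silenced replicate 2 and 0.32 without control replicate 1. Without both arrays of number 1, 2 or 3 the difference of Pdk4 was 0.19, 0.29 and 0.081. Pdk2, the broadly expressed kinase isoform, read 7.11, 7.48 and 7.46 in control and 7.41, 7.58 and 7.85 in silenced arrays 1 to 3. Silenced arrays were higher in each same-numbered pair, and the groups overlapped. Its difference was 0.26 ± 0.15 (SE, unadjusted p = 0.115), and it was 0.14 without control replicate 1 or without silenced replicate 3. Without both arrays of number 1, 2 or 3 it was 0.24, 0.34 and 0.20. In the fit blocked on replicate number its unadjusted p was 0.0210, with a limma adjusted p of 0.464.

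Pdk1, the kinase isoform known as a target of the hypoxia-inducible factor, read 8.44, 8.04 and 8.24 in control and 8.31, 7.91 and 7.99 in silenced arrays 1 to 3. It was lower in silenced arrays in each same-numbered pair, by -0.17 ± 0.14 (SE), and the groups overlapped. Its difference was -0.069 without control replicate 1 and -0.088 without silenced replicate 2, and -0.29 and -0.27 without silenced replicate 1 and control replicate 2. Without both arrays of number 1, 2 or 3, which keeps the numbers balanced, it was -0.19, -0.19 and -0.13. Pdk3 differed by -0.052 ± 0.096 (SE). Of the phosphatase genes, the catalytic subunit Pdp1 differed by -0.13 ± 0.10 (SE) and the regulatory subunit Pdpr by 0.042 ± 0.080 (SE). Pdp2, the second catalytic subunit, was not tested because it was dim. It read 3.88, 3.29 and 3.81 in control and 4.44, 3.48 and 3.82 in silenced arrays 1 to 3, with the highest values in both arrays numbered 1.

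Pyruvate entry beyond the complex was read by 3 genes. Pcx, the pyruvate carboxylase that replenishes oxaloacetate, read 6.35, 6.30 and 6.16 in control and 6.47, 6.38 and 6.76 in silenced arrays 1 to 3. The silenced arrays were all higher than the control arrays, and silenced array 3 stood furthest away. The difference was 0.26 ± 0.12 (SE), 1.2-fold (unadjusted p = 0.0586, limma adjusted p = 0.871), and the difference was 0.15 without silenced replicate 3. Without both arrays of number 1, 2 or 3 the difference of Pcx was 0.34, 0.36 and 0.097. Mpc1, a subunit of the mitochondrial pyruvate carrier, read 9.38, 9.51 and 9.45 in control and 9.35, 9.36 and 9.34 in silenced arrays 1 to 3. Its silenced arrays were all lower by a small margin, with a difference of -0.10 ± 0.076 (SE, limma adjusted p = 0.873).

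Pck2, the mitochondrial phosphoenolpyruvate carboxykinase, makes phosphoenolpyruvate from oxaloacetate inside mitochondria. It read 8.06, 9.55 and 9.22 in control and 7.91, 9.35 and 9.33 in silenced arrays 1 to 3. Both arrays numbered 1 were far below the other 4, and the groups overlapped. The difference between groups was -0.082 ± 0.49 (SE, 95% confidence interval -1.23 to 1.07). In the fit blocked on replicate number the interval was -0.30 to 0.13. Without the block, leaving out single arrays moved the difference between -0.52 (without control replicate 1) and 0.40 (without silenced replicate 1). Leaving out 1 array unbalances the replicate numbers between the groups. Without both arrays of number 1, 2 or 3 the difference was -0.044, -0.025 and -0.18.

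The enzymes that link the cytosol with the cycle include the malate-aspartate shuttle, which carries reducing equivalents of glycolysis into mitochondria. Mdh1, the cytosolic malate dehydrogenase, read 10.57, 10.51 and 10.75 in control and 10.33, 10.44 and 10.50 in silenced arrays 1 to 3. All silenced arrays were below all control arrays, though control array 2 and silenced array 3 nearly met. The difference was -0.19 ± 0.096 (SE, unadjusted p = 0.0922, limma adjusted p = 0.871), or -0.12 without control replicate 3. The aspartate aminotransferases of the shuttle, cytosolic Got1 and mitochondrial Got2, differed by 0.13 ± 0.15 (SE) and 0.12 ± 0.082 (SE). Cytosolic isocitrate dehydrogenase, Idh1, differed by -0.15 ± 0.14 (SE), the cytosolic aconitase and iron regulatory protein Aco1 by 0.064 ± 0.095 (SE), and the mitochondrial malic enzyme Me2 by -0.018 ± 0.079 (SE). The groups of these 5 genes overlapped.

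**Figure D2:**
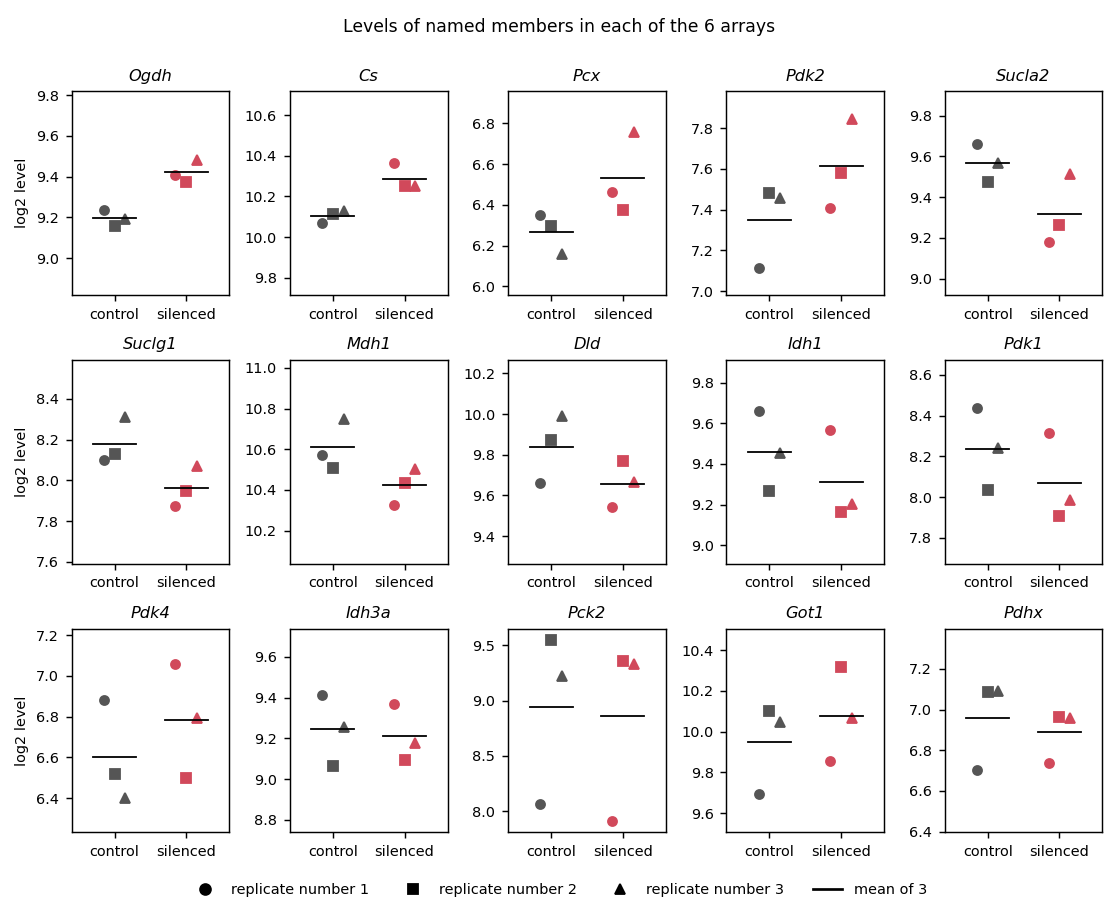
Log2 level of 15 named members in each array (control grey, silenced red, the marker shape giving the replicate number, black lines the mean of 3 arrays), each panel with its own vertical axis. Groups are separate in Ogdh, Cs and Pcx (silenced higher) and in Suclg1 and Mdh1 (silenced lower). Over all tested genes the shares of such genes were 6.94% and 4.87%. In Pck2 both circles of number 1, at 8.06 and 7.91, stand apart from the other 4 arrays.

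Counted over the tested members, all 3 silenced arrays were above all 3 control arrays in 3 of 31 (9.68%; Cs, Ogdh and Pcx), against 6.94% of all tested genes. They were below in 3 of 31 (9.68%; Suclg1, Mpc1 and Mdh1), against 4.87%. Silenced arrays were higher in all 3 same-numbered pairs for 7 members (22.6%), against 19.7% of all tested genes. They were lower in all 3 pairs for 10 members (32.3%), against 15.8%. Those 10 were Idh3b, Dld, Sucla2, Suclg1, Pdhb, Pdk1, Pdp1, Mpc1, Mdh1 and Idh1, of which the cycle holds 4. Members share their arrays, so these shares are a description and were not tested.

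When replicate number entered as a block, 0 members passed the adjusted threshold (smallest limma adjusted p = 0.464) and 4 members had an unadjusted p under 0.05, namely Ogdh, Pdk2, Sucla2 and Suclg1. That is 12.9% of the 31 members, against 10.3% of all tested genes in the same fit. The block narrowed the interval of Suclg1 to -0.39 to -0.042 and that of Ogdh stayed at 0.048 to 0.40.

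Several probe sets named 1 gene for 4 members, and their differences had the same sign within each gene. The differences were 0.12, 0.14 and 0.035 for the 3 sets of Got2, and -0.10 and -0.19 for the 2 sets of Mpc1. They were -0.088 and -0.17 for Pdhb and 0.0036 and 0.034 for Suclg2, the kept set first in each case. The second set of Mpc1 had a mean level of 6.02, against 9.40 for the kept set, and its groups overlapped. That of Pdhb had a mean of 4.01, near the level filter of 3.87. With the mean of a gene's probe sets, 5 members had groups that did not overlap, against 6 as reported. The share of all tested genes was not counted in that setting, so this count is no result about the members.

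The surrounding pathway was read from 48 further genes, of which 44 were read by a probe set of their own and 41 passed the level filter. Between silenced and control arrays 0 of the 41 passed limma's adjusted threshold, the mean was higher for 18 and lower for 23, and their median difference was -0.013. At an unadjusted p under 0.05 there was 1 gene of the 41, against 4.80% of all tested genes. This was Sdhaf4, an assembly factor of succinate dehydrogenase, which read 4.99, 5.30 and 5.03 in control and 4.41, 4.79 and 4.67 in silenced arrays 1 to 3 (difference -0.48 ± 0.13 SE, unadjusted p = 0.00712, limma adjusted p = 0.871). Sdhb, the iron-sulfur subunit of succinate dehydrogenase, differed by -0.15 ± 0.091 (SE). Among the 9 tested genes of lipoylation and its iron-sulfur cofactors, which the dehydrogenase complexes depend on, 3 were higher and 6 lower, with Lias, the lipoyl synthase, at -0.16 ± 0.089 (SE) and the lipoyltransferase Lipt1 at -0.19 ± 0.12 (SE). Among the 20 tested genes of substrate supply and carriers, 10 were higher and 10 lower, with the aspartate-glutamate carrier Slc25a12 at 0.16 ± 0.087 (SE) and Dbt, the transacylase of branched-chain keto acid oxidation, at -0.12 ± 0.079 (SE).

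Lists of regulators around the kinases were also read between silenced and control arrays. Genes that regulate Pdk4 or share its regulation had a median difference of 0.020 over 10 tested genes, with Foxo3 at 0.15 ± 0.092 (SE) and Angptl4 at -0.22 ± 0.15 (SE). Hypoxia genes had a median of -0.052 over 12, with Ankrd37 at -0.33 ± 0.19 (SE) and Bnip3 at -0.34 ± 0.20 (SE). Targets of the stress transcription factor ATF4 had a median of -0.074 over 17, with Ddit4 at -0.29 ± 0.19 (SE) and Cebpb at -0.13 ± 0.20 (SE). The myotube markers had a median of 0.055 over 11 genes, 9 of them higher. Of the 11, 4 had an unadjusted p under 0.05, against 4.80% of all tested genes. The smallest p-values among them were those of the myosin heavy chain genes Myh1 at 0.36 ± 0.090 (SE) and Myh3 at 0.26 ± 0.081 (SE). Undifferentiated myoblast markers included Id3 at -0.25 ± 0.088 (SE) and Pax7 at 0.22 ± 0.090 (SE), with unadjusted p-values of 0.0232 and 0.0461, and a median of -0.023 over 9. Fibroblast markers included Lum at -0.60 ± 0.38 (SE) and Col1a1 at 0.090 ± 0.097 (SE), and the adipocyte and osteoblast markers that could be tested were Pparg at 0.060 ± 0.13 (SE) and Bglap at -0.31 ± 0.23 (SE). No gene of these context and marker lists passed limma's adjusted threshold, and the part of the markers in the members' differences was not tested.

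Replicate number 1 set 1 member far apart from numbers 2 and 3. Pck2 was lower in both arrays of number 1, at 8.06 in control and 7.91 in silenced arrays, than in the other 4, which read between 9.22 and 9.55. The difference, number 1 minus the mean of numbers 2 and 3, was -1.38 ± 0.094 (SE), a 2.6-fold lower level (limma adjusted p = 0.00243). It was -1.32 within control and -1.44 within silenced arrays. In the F test over the 3 numbers Pck2 had a limma adjusted p of 0.00647 and was the 1 member called of 31 (3.23%), against 3.12% of all tested genes. In the contrast of number 1, chosen with earlier results of these data known, 1 member was lower (3.23%) against 3.57% of all genes and 0 were higher against 2.92%. In all, 733 genes were called there. The count was 41 without silenced replicate 3, 48 without control replicate 3, 428 and 431 without control and silenced replicate 2, and 1228 without control replicate 1, and Pck2 was called each time.

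The other members that stood furthest from numbers 2 and 3 did not pass the threshold in that fit. Got1, cytosolic aspartate aminotransferase, read 9.69, 10.10 and 10.05 in control and 9.85, 10.32 and 10.07 in silenced arrays 1 to 3. Both arrays of number 1 were below the other 4, and the difference was -0.36 ± 0.083 (SE, limma adjusted p = 0.0587). Pdhx, at 6.70, 7.08 and 7.09 in control and 6.74, 6.96 and 6.96 in silenced arrays 1 to 3, and Pdk2, whose values are given above, were also lowest in number 1. They differed by -0.30 ± 0.082 (SE) and -0.33 ± 0.091 (SE, limma adjusted p = 0.0840 and 0.0895).

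In the other direction, Idh1 read 9.66, 9.27 and 9.45 in control and 9.56, 9.16 and 9.20 in silenced arrays 1 to 3. Number 1 was highest in both groups, by 0.34 ± 0.081 (SE, limma adjusted p = 0.0629). Pdk1 and Pdk4 were likewise highest in number 1, by 0.33 ± 0.080 (SE) and 0.42 ± 0.10 (SE, limma adjusted p = 0.0644 and 0.0690). Idh3a, the catalytic subunit of the NAD-dependent enzyme, read 9.41, 9.06 and 9.26 in control and 9.37, 9.10 and 9.18 in silenced arrays 1 to 3, and its difference was 0.24 ± 0.078 (SE, limma adjusted p = 0.125). The kinases lay on both sides, with higher means in number 1 for Pdk1, Pdk3 and Pdk4 and a lower mean for Pdk2. Pdk3 differed by 0.13 ± 0.092 (SE, limma adjusted p = 0.442). For Cs the difference was 0.031 ± 0.083 (SE, 95% confidence interval -0.17 to 0.23), for Ogdh 0.021 ± 0.078 (SE), for Pcx 0.012 ± 0.12 (SE) and for Mpc1 -0.051 ± 0.079 (SE).

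The number of members called in this contrast depended on the setting. It was 7 with a stricter level filter, which tested fewer genes, and 7 with a trended and robust variance model, against 1 as reported. Over all genes the contrast called 1176 and 1447 in these settings, against 733 as reported, so calls rose beyond the members too. In the trended and robust model these were 7 of 31 members and 1447 of 11292 genes. The number of genes tested under the stricter filter is not given here. Members share their arrays, so these counts are a description and do not single out the members. In the stricter filter the 6 added were Idh1, Pdk1, Pdk4, Got1, Pdhx and Pdk2, each with the same difference and a smaller adjusted p. Centring each array on its median, with 3 members called, added Idh1 and Pdk4, and repeated quantile normalization, with 2, added Got1. Over all genes these settings called 847 and 837. Both arrays of number 1 were above the other 4 for 6 tested members (19.4%), against 16.0% of all tested genes, and below for 6 (19.4%), against 15.3%. Between numbers 2 and 3, 0 members passed by limma, against 0% of all genes, 0 members had an unadjusted p under 0.05, and the smallest limma adjusted p of a member was 0.650.

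**Figure D3:**
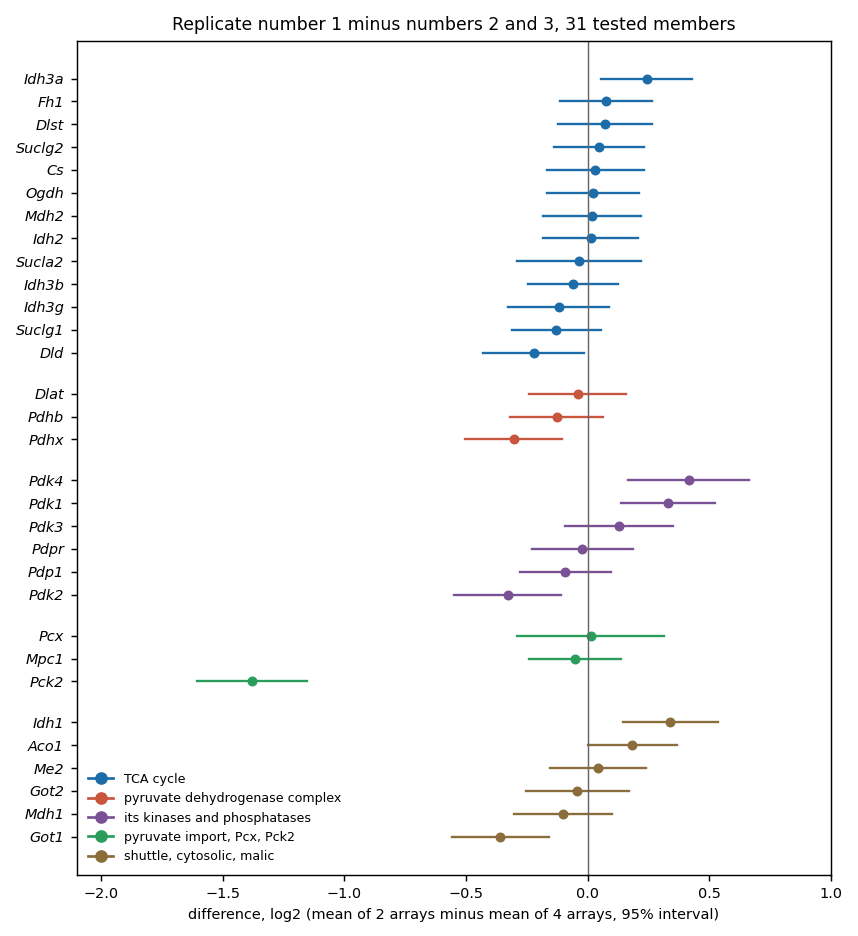
Difference of each of the 31 tested members between replicate number 1 (mean of 2 arrays) and numbers 2 and 3 (mean of 4 arrays) on the log2 scale, with limma's 95% confidence interval, coloured by role. Pck2 lies at -1.38, and the other 30 members lie between -0.36 (Got1) and 0.42 (Pdk4).

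Pck2 and Got1 had the smallest p-values among the members with a lower mean in number 1, and their promoters are shown because the element bound by ATF4 with C/EBP factors was found in both. ATF4 is the main transcription factor through which the integrated stress response acts, and it raises genes of amino acid supply. The motif TGATGNAA was searched on both strands of RefSeq windows from 250 bases before to 50 after each gene's start (GRCm38.p6). Of the 31 members with a window, 2 held it, Pck2 and Got1, against 4.51% of all 27025 genes with a window (3.97% of 32851 windows), so a count of 2 is near the background. The 250 bases before the start are printed 5′ to 3′ along the gene's strand, with the match in capitals. The Pck2 stretch is chr14:55540016-55540265 on the plus strand and that of Got1 is chr19:43524606-43524855 on the minus strand.
Pck2: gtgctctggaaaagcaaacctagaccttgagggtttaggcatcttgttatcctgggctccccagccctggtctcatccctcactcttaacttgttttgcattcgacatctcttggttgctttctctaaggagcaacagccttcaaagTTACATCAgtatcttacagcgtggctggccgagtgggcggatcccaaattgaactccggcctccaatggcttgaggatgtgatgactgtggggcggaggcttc
Got1: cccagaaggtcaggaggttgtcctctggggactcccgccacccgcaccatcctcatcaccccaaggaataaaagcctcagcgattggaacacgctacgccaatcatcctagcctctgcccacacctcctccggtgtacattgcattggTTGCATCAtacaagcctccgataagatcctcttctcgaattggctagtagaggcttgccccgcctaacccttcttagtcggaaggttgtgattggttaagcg
The match lies on the opposite strand in both, 96 to 103 bases before the start of Pck2 and 95 to 102 before that of Got1, and overlapped none of the other motifs searched. A match describes these letters and shows no binding. The hypoxia element core ACGTG was in windows of 9 of the 31 members (21.8% of all genes), the ERR core AAGGTCA in 2, Got1 and Ogdh (5.38%), and the NRF1 core GCGCATGC in 1, Ogdh (3.05%). Several start sites give a gene several windows.

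Genes of the ATF4 response moved with Pck2 across the replicate numbers. Of 17 tested, 14 were lower in number 1 by limma's adjusted threshold and 0 higher, against 3.57% and 2.92% of all tested genes. Their median difference was -0.68, where all tested genes had a median of 0.0053. The mean level of these genes was 8.63 and 8.41 in control and silenced array 1 and between 9.34 and 9.48 in the other 4. Slc7a11, the cystine transporter, differed by -2.26 ± 0.080 (SE) and the transcription factor Atf3 by -1.24 ± 0.081 (SE, limma adjusted p = 6.45e-04 and 0.00222). This pattern was already known from earlier results of these data, and its part in the difference of Pck2 was not tested. In the motif search 17 listed genes, Pycr1 among them though it was not measured here, had a window, and 7 of these held TGATGNAA.

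**Figure D4:**
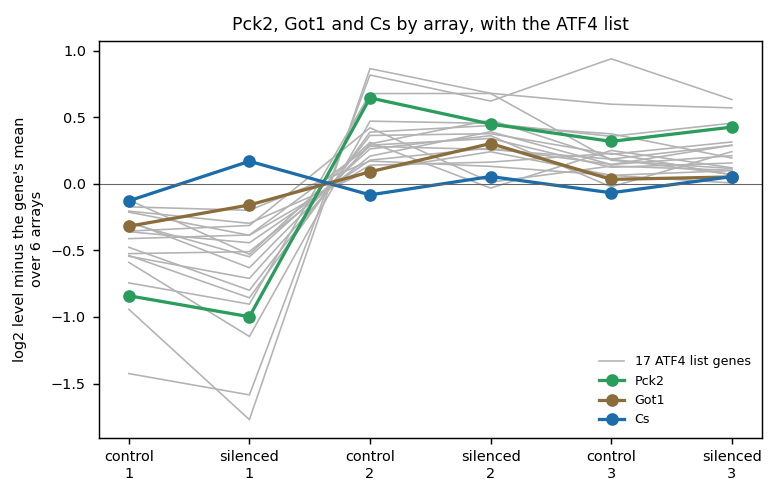
Log2 level of Pck2, Got1 and Cs minus each gene's own mean over 6 arrays, with the 17 ATF4 list genes as grey lines, for the arrays ordered by replicate number. Pck2 is lowest in both arrays of number 1, where 14 of the 17 list genes were called lower (3.57% of all tested genes). The 6 arrays of Cs span 0.30, against 1.64 for Pck2.

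Of the 41 tested pathway genes beyond the members, 1 was lower and 3 were higher in number 1 by limma's adjusted threshold. The shares over all tested genes were 3.57% and 2.92%. For the higher calls the share of the 41 is above that background, which was not tested, and each call describes a single gene. The lower one was Gpt2, the mitochondrial alanine aminotransferase that interconverts pyruvate and alanine, which read 8.50, 10.04 and 10.02 in control and 8.24, 9.90 and 10.00 in silenced arrays 1 to 3. Its difference was -1.62 ± 0.087 (SE, limma adjusted p = 0.00155), and both arrays of number 1 were far below the others. The higher ones were Slc16a3, a lactate exporter, with 0.65 ± 0.088 (SE, limma adjusted p = 0.0139), and, named after their values were seen, Acly, the ATP citrate lyase, with 0.56 ± 0.085 (SE) and the dicarboxylate carrier Slc25a10 with 0.39 ± 0.081 (SE). None of the 12 succinate dehydrogenase and other cycle genes and none of the 9 lipoylation genes passed, with Sdhaf1 at 0.29 ± 0.083 (SE), Sdhc at 0.30 ± 0.096 (SE), Glrx5 at 0.29 ± 0.096 (SE) and Mcat at -0.24 ± 0.095 (SE).

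The context and marker lists were read in the same contrast, where the all-gene shares of 2.92% higher and 3.57% lower apply. Of 12 hypoxia genes 4 were higher and 4 lower, with a median difference of 0.21. The 2 of smallest p were lower, Ero1a, an oxidoreductase of the endoplasmic reticulum, with -1.07 ± 0.081 (SE) and the growth factor Vegfa with -0.70 ± 0.083 (SE). The higher ones, named after their values were seen, were Bnip3, a mitophagy receptor, with 0.55 ± 0.080 (SE), the glucose transporter Slc2a1 with 0.48 ± 0.076 (SE), Egln1, the prolyl hydroxylase that marks the hypoxia-inducible factor, with 0.41 ± 0.081 (SE), and the peptide hormone Adm with 0.51 ± 0.087 (SE). Of the genes around Pdk4, 1 of 10 passed, the uncoupling protein gene Ucp3, at -0.70 ± 0.094 (SE), while Esrrg was at -0.50 ± 0.15 (SE). Of the undifferentiated myoblast markers 4 of 9 were higher, including Id2 with 0.61 ± 0.093 (SE) and Mki67 with 0.49 ± 0.085 (SE), and of the fibroblast markers 2 of 6 were lower, Dcn with -0.58 ± 0.082 (SE) and Lum with -0.86 ± 0.14 (SE). None of the 11 myotube markers passed, with Myog at -0.29 ± 0.078 (SE) and Atp2a1 at -0.25 ± 0.10 (SE). The part of these lists in the members' differences was not tested.

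The spread of each member over the 6 arrays was divided into the sums of squares of replicate number, of group and of the rest. The median share of number was 47.8% over the members and 49.6% over all tested genes. The median share of group was 21.3% and 14.2%. Number held more than group for 21 members and group more than number for 10. Number has more levels than group, so it holds the larger share more often even without any difference. The matching count over all tested genes was not made, so these counts are no result about the members. The share of number was 98.6% for Pck2 and 95.4% for Idh3a. The share of group was 89.3% for Ogdh and 82.7% for Cs. The 6 arrays of a member spanned a median of 0.30, from 0.088 for Idh2 to 1.64 for Pck2, where all tested genes spanned a median of 0.37.

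**Figure D5:**
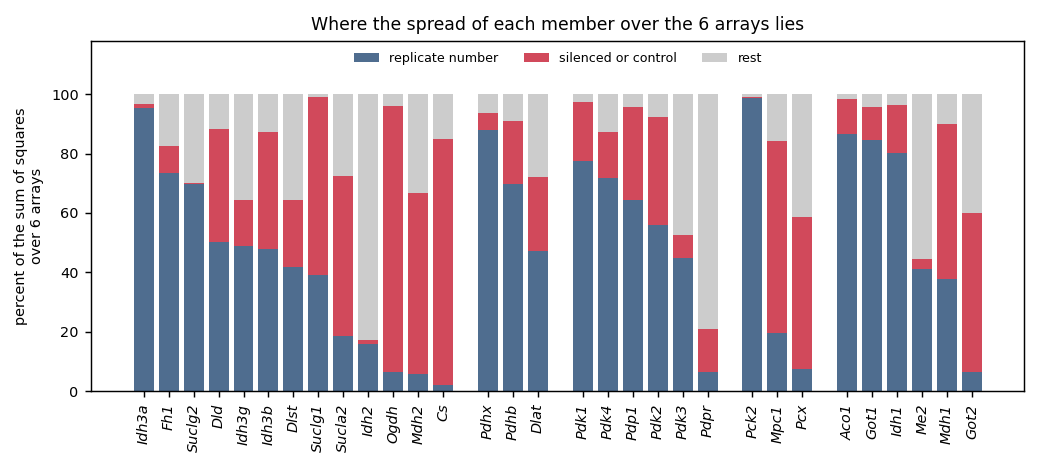
Share of each member's sum of squares over 6 arrays that lies between replicate numbers, between silenced and control arrays, and in the rest, as stacked bars ordered by role. Pck2 reaches 98.6% for replicate number and Ogdh 89.3% for group.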

How the data were processed

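Gene expression was measured on 6 one-colour Affymetrix whole-transcript arrays. The deposited values are log2 levels made with RMA by the authors, per the submitters' processing notes, which give no version. They were used as deposited.

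Of 35556 probe sets, 21218 name 1 gene in the platform annotation, which gave 18820 genes. The 11292 above the 40th percentile (log2 level 3.87) were tested with limma 3.58.1 (R 4.3.3; lmFit, eBayes, 2-sided), Benjamini-Hochberg adjustment over all of them and a threshold of 0.05, with no covariate. Replicate numbers were compared in a fit with number and group. The functions were tested on simulated data.

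Same-numbered arrays of both groups deviated together from their group means (r = 0.55, 0.35 and 0.42), so the numbers are taken as pairs from the data alone. Results come from the unblocked fit unless stated. That fit leaves differences between numbers in its error, so members with large ones have wider intervals there. The SE with and without the block was 0.089 and 0.49 for Pck2, 0.075 and 0.14 for Pdk1, and 0.078 and 0.077 for Cs.

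Members, lists, motifs and the number 1 contrast were chosen with earlier results of these data known. All 6 values are given for the 4 members of smallest p in either direction of both comparisons, for a panel (Cs, Ogdh, Idh2, Pdk1, Pdk4, Mpc1, Pcx and Pck2; Pdha1 and Mpc2 had no value), and for Suclg2 and Pdp2, added after their values were seen. Each other list is named by its 2 genes of smallest p. Alternatives were the level filter, normalization, probe set choice, variance model, block and leaving out arrays, whose number limits the precision.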

Additional observations from a re-analysis of the deposited data

How the results depend on the processing

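Between silenced and control arrays 0 members and 0 of all tested genes passed limma's adjusted threshold under each of the 16 alternatives run. The count of members at an unadjusted p under 0.05, 2 as reported, was 1 with no level filter, 5 with a 60th percentile filter, 5 with a trended and robust variance model, 4 with the replicate number as a block, and 1, 0 and 1 without both arrays of number 1, 2 and 3. It ranged from 0 to 2 when 1 array was left out. Apart from 4.80% as reported and 10.3% under the block, shares of all tested genes were not counted. These counts therefore do not single out the members. Under the block Cs had an unadjusted p above 0.05 and Pdk2, Sucla2 and Suclg1 one below it, and the side of no other member changed. Of the named differences between groups, those of Idh2 (0.0080 as reported) and Pck2 (-0.082) changed sign under some alternatives, while the other 11 kept theirs in all 16. Idh2 was -0.032 without both arrays of number 2 and ranged from -0.018 to 0.033 when 1 array was left out, and Pck2 from -0.52 to 0.40. Pck2 changed sign only without silenced replicate 1, control replicate 2 or control replicate 3, omissions that unbalance the replicate numbers. Without both arrays of number 1, 2 or 3 its difference was -0.044, -0.025 and -0.18.

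Pck2 kept its lower level in number 1 and its call in all 13 alternatives of that fit, from -1.45 to -1.31. Members called in that contrast, 1 as reported, numbered 7 with the 60th percentile filter, 2 with repeated quantile normalization, 3 with median centring and 7 with the trended and robust model. By the F test they numbered 5 with that filter and 4 with that model, again against 1, and calls over all genes were not counted for it there. Over all genes the contrast called 733, against 252 with no level filter, 1176 with the 60th percentile filter and 1447 with the trended and robust model, and from 41 to 1228 when 1 array was left out. The filters change how many genes are tested, and the cause of the other shifts was not tested. Shares of all tested genes were not worked out for these settings, so the member counts do not single out the members. When 1 array was left out, small differences of number 1 ranged through 0, from -0.053 to 0.11 for Cs, -0.020 to 0.062 for Ogdh, -0.049 to 0.075 for Idh2, -0.10 to 0.00089 for Mpc1 and -0.11 to 0.14 for Pcx. Signal limits 1 member, Pdp2, which was too dim to test.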
